A study of Mus musculus with 2 samples.

Results

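Cycling infiltrating macrophages are cells of the ischemic mouse brain that carry the lysozyme transcript of blood-derived phagocytes together with transcripts of dividing cells. They were selected on measured counts of unique molecular identifiers (UMIs, single captured transcripts). Cells were barcodes that reached 1000 UMIs and 500 genes with no more than 10% of UMIs from mitochondrial genes. A cell was a member if it held at least 3 UMIs of Mki67, Top2a, Birc5 and Ube2c together, at least 5 UMIs of Lyz2, under 10 UMIs per 10000 of 6 microglia genes (P2ry12, Tmem119, Sparc, Gpr34, Olfml3 and Siglech), no UMI of Marco, Cd3e, Cd3d or Trbc2, and under 20 UMIs per 10000 of S100a8 and S100a9. The rule found 322 of 22960 cells, 296 in replicate 1 and 26 in replicate 2. All samples came from 1 group of 2 libraries, made from the ischemic brain of Foxp3Egfp mice aged 6 to 8 weeks, in which Egfp reports the regulatory T cell gene Foxp3. Cells had been sorted as CD45+CD11b+CD3-F4/80+, and single-cell 3′ transcripts were counted with the Chromium v3 kit. There was no healthy or untreated group, so every comparison is between kinds of cells within the same libraries. The labels do not say that the libraries came from separate animals, and cDNA of mice with stroke was pooled, so the spread that p-values rest on may be technical.

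After a stroke, monocytes enter the damaged brain from the blood and become macrophages, while the brain's resident macrophages, the microglia, also respond and divide. Macrophages were long regarded as cells that have left the cell cycle, but both resident and recruited macrophages can divide in tissue. A cell that divides first licenses its DNA origins with the MCM helicase, then copies its DNA with replication enzymes and new nucleotides and histones, and finally enters mitosis, in which cyclin B and Cdk1 drive spindle assembly until the anaphase-promoting complex ends it.

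The libraries held 101893367 and 62850768 UMIs, with a median of 5356 and 5892 UMIs per cell. Of the cell barcodes, 31 occurred in both libraries, 0.206% and 0.392% of their cells. Cycling macrophages were deep cells, and the median member held 11224 UMIs and 2684 genes in replicate 1, and 16125 UMIs and 3250 genes in replicate 2. Non-cycling macrophages, which passed the same limits but held no UMI of the 4 division genes, had medians of 6269 and 7238 UMIs (4585 and 955 cells). Cycling microglia-gate cells, with at least 50 UMIs per 10000 of the 6 microglia genes and the same division limit, had medians of 7635 and 13214 UMIs (123 and 140 cells). Summed over cells, cycling macrophages gave 3533745 and 487772 UMIs. Scrublet, a doublet caller, marked 19 and 2 members (6.42% and 7.69%), against 3.01% and 4.61% of non-cycling macrophages. It had not worked on replicate 2, where the highest scores at the expected rate were taken instead, and members it marked were kept.

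The label was checked against marker lists, in CPM, the UMIs summed per group and library and scaled to the same total. The 12 markers of monocyte-derived macrophages summed to 32686 and 20893 CPM in cycling macrophages, against 44280 and 29956 CPM in non-cycling macrophages and 2573 and 2285 CPM in cycling microglia-gate cells. The 12 microglia markers summed to 1593 and 1331 CPM in cycling macrophages, against 13930 and 15088 CPM in cycling microglia-gate cells. Both differences between cycling macrophages and cycling microglia-gate cells were set in part by the rule. It required Lyz2, a transcript of blood-derived phagocytes, in members and limited their microglia genes. Lyz2 and the 4 division genes of the rule summed to 21344 and 13781 CPM in cycling macrophages, of which the division genes gave 1238 and 1484 CPM. In cycling microglia-gate cells these sums were 2779 and 2403 CPM, with 1052 and 984 CPM from the division genes. Lyz2 thus made up most of the macrophage marker sum in members, and the rest of that sum was higher in members too. Neither difference is therefore an independent check of the label. Markers of border-associated macrophages summed to 1880 and 1210 CPM, against 1842 and 1566 CPM in non-cycling macrophages and 256 and 199 CPM in cycling microglia-gate cells. Of these 10 markers 8 and 7 were seen in members, with Lyve1 and Cd209f at 0 and most of the sum from Pf4. T and NK cell markers summed to 0.849 and 0 CPM, and all 5 mast cell and basophil markers were at 0. Erythroid markers reached 624 CPM in replicate 1 and 2.05 CPM in replicate 2, and 2 of the 296 cells held 2195 of the 2205 haemoglobin UMIs there. Dendritic cell markers summed to 19.8 and 119 CPM, with 6 and 9 of 10 markers seen. Stem and progenitor markers summed to 98.8 and 199 CPM, against 25.4 and 125 CPM in non-cycling macrophages, with Gata1 and Myb at 0. These sums did not go against the label of a dividing macrophage, but they cannot tell whether some members were dendritic cells. The word infiltrating rests on low microglia genes and high Lyz2 and on no lineage mark.

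Values below are given for replicate 1 and then replicate 2. The 4 division genes of the rule encode the proliferation antigen Ki-67 (Mki67), topoisomerase II alpha, which untangles DNA (Top2a), survivin, a subunit of the chromosomal passenger complex (Birc5), and the ubiquitin-conjugating enzyme of the anaphase-promoting complex (Ube2c). Birc5 stood at 405 and 476 CPM in cycling macrophages. Ube2c stood at 348 and 521 CPM, Top2a at 286 and 293 CPM, and Mki67 at 199 and 195 CPM. Birc5 was seen in the most members, 92.6% and 96.2% of cells, and Mki67 in 83.4% and 65.4%. In replicate 2, 2 of the 26 cells held 48.8% of the Ube2c UMIs, so levels there lean on few cells. The 4 genes together reached 1238 and 1484 CPM in cycling macrophages, against 133 and 94.3 CPM in barcodes under 100 UMIs, which stand for free RNA. These genes chose the members, so their levels are a description with no test. In build GRCm38 (GENCODE vM21) they lie, all as protein-coding genes, at chr7:135689784-135716361 (Mki67, minus strand), chr11:98992943-99024189 (Top2a, minus strand), chr11:117849251-117855743 (Birc5, plus strand) and chr2:164769898-164778822 (Ube2c, plus strand).

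Members just inside and just outside the limits were counted. At the division limit, 30 and 2 macrophage-gate cells held exactly 3 UMIs of the 4 genes and 60 and 11 held 2. The median member held 11 UMIs in replicate 1 and 11.5 in replicate 2, with a highest value of 74 and 133. At the microglia limit, 60 and 7 members lay between 5 and 10 UMIs per 10000, and 58 and 9 dividing Lyz2-positive cells lay between 10 and 15. A further 250 and 98 such cells lay between 20 and 50, so dividing cells with Lyz2 formed no gap at the limit. The limit on Marco, a scavenger receptor, removed 48 and 1 dividing cells.

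The rest of the division programme was described by role, in 5 lists that the rule did not name but that follow the same cells. Cycling macrophages carried genes of every list. In the origin-licensing and G1/S list, the median log2 difference from non-cycling macrophages was 2.42 over 22 genes. Gmnn, the inhibitor of re-licensing, stood at 130 and 121 CPM in cycling macrophages, against 23.2 and 20.2 CPM in non-cycling macrophages. The helicase subunits Mcm3 (63.1 and 103 CPM, against 16.1 and 15.2 CPM), Mcm7 (49.2 and 75.9 CPM, against 5.26 and 7.54 CPM), Mcm6 (63.1 and 57.4 CPM, against 13.1 and 8.88 CPM) and Mcm5 (53.2 and 55.4 CPM, against 4.34 and 4.44 CPM) and the origin-firing kinase subunit Dbf4 (49.5 and 51.3 CPM, against 10.6 and 10.1 CPM) lay above their non-cycling levels in both libraries.

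Among 32 genes of DNA replication and nucleotide supply, the median log2 difference was 2.72. Pcna, the sliding clamp of DNA polymerase, stood at 205 and 178 CPM in cycling macrophages, against 53.5 and 58.4 CPM in non-cycling macrophages. Tyms, which makes thymidylate, stood at 98.5 and 168 CPM, against 4.34 and 5.11 CPM. Rrm2, the regulated subunit of ribonucleotide reductase, stood at 89.7 and 111 CPM, against 0.817 and 0.538 CPM. Its partner subunit Rrm1 was less selective, at 95.1 and 73.8 CPM against 7.09 and 6.06 CPM. Dut, which removes dUTP, and Dnmt1, which copies DNA methylation, differed by log2 3.48 and 1.29. Pcna and Dnmt1 were thus well detected in non-cycling macrophages too, whereas Rrm2 was near absent there.

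Histone and chromatin genes held the most abundant members of the division lists, with a median log2 difference of 2.35 over 23 genes. H2afz, the histone variant H2A.Z, stood at 2370 and 3145 CPM in cycling macrophages, against 528 and 708 CPM in non-cycling macrophages. The chromatin proteins Hmgb2 (724 and 1624 CPM, against 100 and 222 CPM) and Hmgb1 (834 and 1105 CPM, against 234 and 291 CPM) followed, with Hmgn2 at 265 and 560 CPM, against 53.7 and 82.2 CPM. Hist1h2ap, a replication-dependent histone H2A gene, stood at 411 and 439 CPM, against 12.1 and 30.8 CPM. Histone gene copies are nearly identical and their counts are uncertain.

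Mitotic genes separated the groups most, with median log2 differences of 5.78 over 20 genes of mitotic entry and 5.29 over 52 genes of the spindle, kinetochore and mitotic exit. Cdk1, the mitotic kinase, stood at 166 and 213 CPM in cycling macrophages, against 5.32 and 2.42 CPM in non-cycling macrophages. Its cyclins Ccna2 and Ccnb2 stood at 101 and 129 CPM and at 97.6 and 129 CPM, against 0.294 and 0 CPM and 1.24 and 0.942 CPM. The Cdk-binding subunits Cks1b (223 and 359 CPM, against 18.1 and 13.6 CPM) and Cks2 (203 and 283 CPM, against 23.5 and 44.8 CPM) and the centromeric histone Cenpa (217 and 250 CPM, against 18.1 and 36.7 CPM) were higher too. The microtubule genes Tubb5 (1223 and 1447 CPM, against 271 and 222 CPM), Tuba1b (1110 and 1253 CPM, against 194 and 193 CPM) and Stmn1, which binds free tubulin (828 and 931 CPM, against 37.5 and 20.3 CPM), were the most abundant of the spindle list. Arl6ip1 differed least of the abundant ones, at 633 and 601 CPM against 339 and 265 CPM. Since the cells were chosen by mitotic genes, a larger difference in mitotic than in replication genes is part of the choice. The plot of division genes by group and library shows the members' levels beside both other groups.

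**Figure D1:**
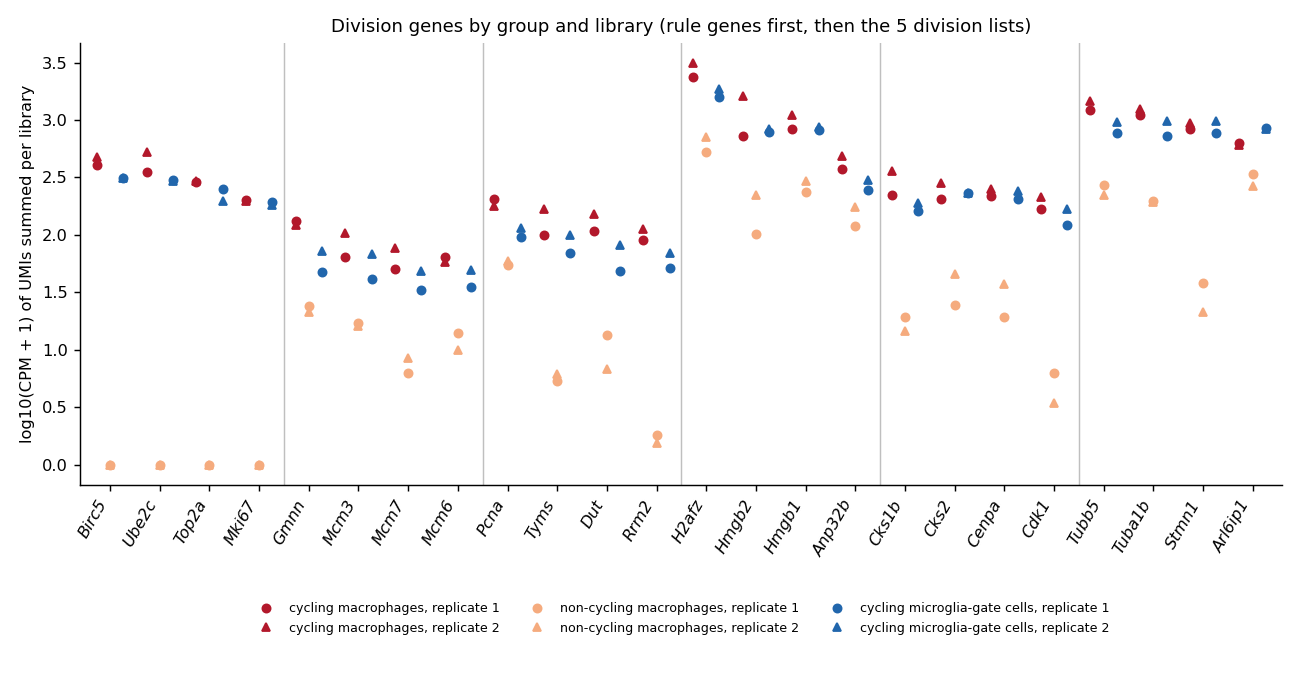
Levels of the 4 rule genes and of the 4 most abundant genes of each division list (licensing and G1/S, replication and nucleotides, histones and chromatin, mitotic entry, spindle and exit, separated by grey lines), as log10(CPM + 1) of UMIs summed per library. Circles are replicate 1 and triangles replicate 2. The rule genes are at 0 in non-cycling macrophages by definition, and Rrm2 lies at 89.7 and 111 CPM in cycling macrophages, against 0.817 and 0.538 CPM in non-cycling macrophages.

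Promoters of division genes are known to carry a few short elements, shown here because the members move together. The letters searched on both strands were TTTGAA (the cell cycle genes homology region, CHR), CCAAT (the CCAAT box), and the E2F site in the forms TTTGGCGC, TTTCCCGC, TTTCGCGC and TTTGCCGC, in the 250 bases before the start site. The sequences are RefSeq promoters of build GRCm38.p6, shown 5′ to 3′ over 120 bases that end before the annotated start, with every match in capitals, overlapping matches included.
Mki67, chr7:135716380-135716499, minus strand: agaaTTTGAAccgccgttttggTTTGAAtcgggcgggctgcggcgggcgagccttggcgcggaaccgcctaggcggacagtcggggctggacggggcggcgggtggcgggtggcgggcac
Top2a, chr11:99024190-99024309, minus strand: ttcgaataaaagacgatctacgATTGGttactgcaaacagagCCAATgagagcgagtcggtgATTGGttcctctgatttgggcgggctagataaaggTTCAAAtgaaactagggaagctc
Cdk1, chr10:69352939-69353058, minus strand: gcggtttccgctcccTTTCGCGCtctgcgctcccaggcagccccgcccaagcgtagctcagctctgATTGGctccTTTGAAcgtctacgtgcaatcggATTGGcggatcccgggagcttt
Mcm6, chr1:128359706-128359825, minus strand: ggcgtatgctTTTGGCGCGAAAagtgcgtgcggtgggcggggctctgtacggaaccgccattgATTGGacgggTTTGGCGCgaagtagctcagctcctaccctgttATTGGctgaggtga
Mki67 shows a pair of CHR matches, Top2a 3 CCAAT boxes and a CHR 23 bases before the start, Cdk1 one match of the E2F type beside a CHR and CCAAT boxes, and Mcm6 E2F matches and CCAAT boxes without a CHR. These windows are examples that have matches. Of the 4 rule genes 3 had both CHR and CCAAT letters in the 250 bases, and Birc5 had no match of any kind. The promoters of Cdt1, Dbf4 and Tyms that were read had none either. CHR letters occurred in 30.4% of 46 spindle genes with a promoter in the table and 33.3% of 15 mitotic entry genes, against 17.6% of 17 licensing genes, 14.8% of 27 replication genes, 45.5% of 11 histone and chromatin genes and 18.3% of all 27025 genes. E2F letters occurred in 41.2% of the licensing genes and 18.5% of the replication genes, against 6.67% of the mitotic entry genes, 6.52% of the spindle genes, 9.09% of the histone and chromatin genes and 2.16% of all genes. CCAAT letters occurred in 55.6% to 90.9% of the lists and 37.5% of all genes. A match is only a run of letters, and the lists are small.

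Among the members, stage was read from UMIs of the licensing and replication lists against the mitotic entry and spindle lists, without the rule genes. With all listed genes, 95.6% and 92.3% of members had more mitotic UMIs, but so had 89.7% and 93.0% of non-cycling macrophages, in which tubulin genes, Stmn1 and Arl6ip1 were also well detected. Without those 6 genes, a choice made after seeing the data, 73.3% of members in replicate 1 (95% exact binomial interval 67.9 to 78.3%) and 84.6% in replicate 2 (65.1 to 95.6%) had more mitotic UMIs, and 26.7% and 15.4% had more replication UMIs. Among cycling microglia-gate cells the mitotic share was 86.2% (78.8 to 91.7%) and 80.0% (72.4 to 86.3%). The median member held 24 and 21.5 replication UMIs and 48 and 60 mitotic UMIs. In replicate 1 the quartiles of the replication UMIs were 8.75 and 46. After thinning every cell to 3000 UMIs, the mitotic share of members was 70.0% and 76.9%. The order of cycling macrophages and cycling microglia-gate cells was not the same in both libraries. Members were chosen by mitotic genes, and the sums compared differ in the number and abundance of their genes. The mitotic share is therefore a description of counts and not a share of cells in mitosis.

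**Figure D2:**
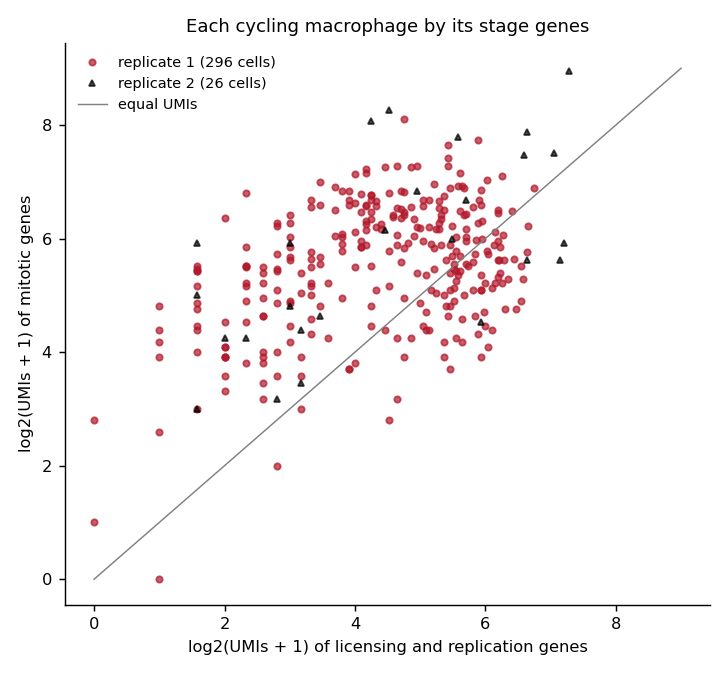
Each cycling macrophage by its UMIs of licensing and replication genes (x axis) and of mitotic genes without tubulin genes, Stmn1 and Arl6ip1 (y axis), both as log2(UMIs + 1). Red circles are the 296 cells of replicate 1 and black triangles the 26 cells of replicate 2. Above the line of equal UMIs lie 73.3% of the cells of replicate 1 and 84.6% of those of replicate 2. Members were chosen by mitotic genes and the lists differ in size, so the line is not a stage boundary.

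Cycling cells made up 5.64% of macrophage-gate cells in replicate 1 (95% exact binomial interval 5.03 to 6.30%) and 2.46% in replicate 2 (1.61 to 3.58%). At 3000 UMIs per cell these shares were 3.57% (3.05 to 4.16%) and 1.20% (0.622 to 2.09%), after 715 and 60 shallower cells were left out. The share was higher in replicate 1 by both measures. Microglia-gate cells gave 3.35% and 3.26%, and 3.62% and 1.5% at 3000 UMIs, where 1821 and 513 cells were left out. Neutrophil-gate cells, taken as a type that should not divide, gave 4.90% (1.61 to 11.1%) and 3.57% (1.65 to 6.67%) of 102 and 252 cells at medians of 2696 and 2250 UMIs, against which the macrophage share was higher in replicate 1 and lower in replicate 2, within the neutrophil-gate intervals. At 3000 UMIs the neutrophil-gate shares were 6.98% and 11.7%, above the macrophage shares, with 43 and 60 cells left. Of those dividing neutrophil-gate cells, 3 of 5 and 8 of 9 also held at least 10 UMIs of Ngp and Camp, granule genes of neutrophil precursors. The shares are therefore descriptions, not a result on how often macrophages divide, and the sort and the UMI limits can set them. Intervals cover counting error only.

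Members were spread over macrophage states defined by UMIs per 10000 of a cell. The monocyte state (at least 10 of Ly6c2, Plac8 and Chil3) took in 1.69% of cycling macrophages in replicate 1 (0.551 to 3.90%) and 23.1% in replicate 2 (8.97 to 43.6%), against 12.1% (11.2 to 13.1%) and 51.1% (47.9 to 54.3%) of non-cycling macrophages. The Arg1 state (at least 10 of Arg1, arginase 1 of alternatively activated macrophages) took in 1.69% and 3.85%, against 7.61% and 15.1%. Both states were scarcer among cycling cells in both libraries, although the interval for the Arg1 state in replicate 2 (0.0973 to 19.6%) reached past the non-cycling share. In cells of 8000 to 20000 UMIs the monocyte share in replicate 1 was 0.952% against 0.897%, so its difference did not hold there at matched depth, while in replicate 2 it was 13.3% against 30.1%.

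The class II state (at least 50 of H2-Aa, H2-Ab1, H2-Eb1 and Cd74, which present antigen to T cells) took in 7.09% (4.45 to 10.6%) and 42.3% (23.4 to 63.1%) of cycling macrophages, against 4.34% (3.77 to 4.97%) and 16.4% (14.1 to 18.9%) of non-cycling macrophages. At 8000 to 20000 UMIs it was 6.19% and 46.7%, against 1.10% and 24.4%. Cycling macrophages thus held the larger class II share in both libraries at both depths. In replicate 1 the intervals over all cells overlapped, and in replicate 2 the share at 8000 to 20000 UMIs rested on 15 cycling cells. Dendritic cell markers summed to 19.8 and 119 CPM in cycling macrophages against 19.5 and 161 CPM in non-cycling macrophages. Sums over cells do not show whether the class II members were dendritic cells. The foam state (at least 10 of Gpnmb and Fabp4, genes of lipid-laden macrophages) took in 59.5% and 19.2% of cycling macrophages, against 69.5% and 19.6%. At 8000 to 20000 UMIs the foam share was 64.8% and 33.3%, against 91.4% and 28.2%, so the libraries differed in its direction. With 2 libraries a side an exact permutation test cannot reach the threshold, and none was run. The bar chart of states gives all 4 pairs.

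**Figure D3:**
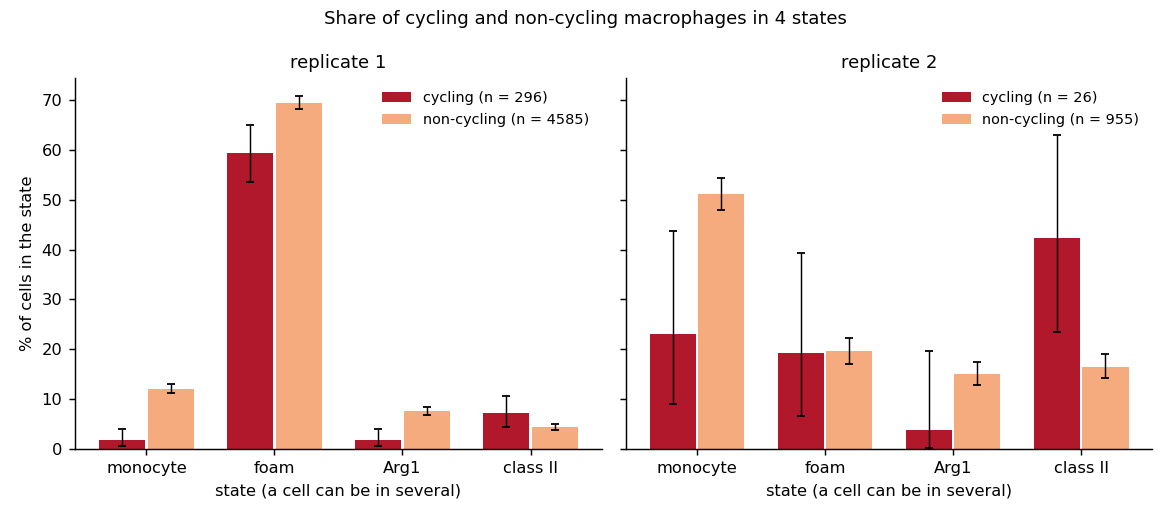
Share of cycling macrophages (red, left bar of each pair) and non-cycling macrophages (orange, right bar) in 4 states, in percent of cells with 95% exact binomial intervals, per library. The monocyte and Arg1 shares are lower and the class II share is higher among cycling cells in both libraries, for example 7.09% and 42.3% class II cells among cycling against 4.34% and 16.4% among non-cycling macrophages.

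Outside the rule genes and the 5 division lists, cycling macrophages differed from non-cycling macrophages in 315 genes that were higher (2.77% of 11354 tested) and 89 that were lower (0.784%), by edgeR's quasi-likelihood test at an adjusted p under 0.05. The genes called higher include further division genes. Among the function lists, calls were all higher in nuclear transport (8 of 17), nucleotide supply (3 of 22) and ribosome assembly (3 of 16), and mostly lower among lipid genes (4 lower and 1 higher of 24) and iron, redox and alternative-activation genes (4 lower and 1 higher of 18). Genes of the rule and of the 5 division lists were left out of the test, but other division genes were not, and the direction of those follows from the choice of cells. The depth of the cells moved with the comparison, and its part in the result was not tested, but values for cells of 8000 to 20000 UMIs (210 and 15 cycling, 1449 and 386 non-cycling) stand beside the genes described. Fitted log2 differences use TMM scaling and can differ from a ratio of CPM values. In those cells 161 genes were higher and 27 lower, and of 43 called genes in the function lists 9 were still called. Without the library as a block 26 of the 43 were called.

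Outside the lists, the genes with the largest increase were mostly division genes. Pclaf, the PCNA clamp-associated factor, stood at 320 and 379 CPM in cycling macrophages, against 1.47 and 1.08 CPM in non-cycling macrophages (log2 7.77 ± 0.40 SE, adjusted p = 6.47e-05). Spc24, a kinetochore subunit, stood at 97.6 and 164 CPM, against 1.54 and 1.35 CPM (log2 6.09). Below these came Hist1h4d (2.78), Dnajc9, a histone chaperone (2.59), Nrm, nurim of the nuclear envelope (2.54), Ccdc34 (2.40), Cmc2 (2.25), Rangap1, which activates the Ran GTPase (2.23), Pmf1 (2.18), Lsm2 of RNA processing (2.07), Sae1 of SUMO activation (2.05) and Selenoh, a nuclear selenoprotein (1.95), all in log2. For all 12 the cycling values of both libraries lay above both non-cycling values, and all 12 also passed in cells of 8000 to 20000 UMIs.

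Nuclear transport and RNA processing was the list with the most calls, 8 higher and 0 lower of 17 tested, with a median log2 difference of 0.83 against -0.06 over all tested genes. Ran, the GTPase that gives import and export their direction, stood at 770 and 1041 CPM in cycling macrophages, against 276 and 271 CPM in non-cycling macrophages (log2 1.48 ± 0.21 SE, adjusted p = 0.00549). Its binding protein Ranbp1 stood at 457 and 586 CPM, against 152 and 172 CPM (log2 1.45 ± 0.18, adjusted p = 0.0028). Alyref, which hands mRNA to the export machinery, stood at 261 and 355 CPM, against 80.6 and 113 CPM (log2 1.45, adjusted p = 0.00295). The spliceosome core protein Snrpd1 rose too, at 290 and 353 CPM against 112 and 135 CPM (log2 1.15, adjusted p = 0.00646). Hnrnpab, Nup62, Set and Kpnb1 were the other 4, between log2 0.90 and 1.49. In cells of 8000 to 20000 UMIs none of the 8 passed, with log2 differences of 0.43 for Set up to 1.36 for Nup62 and the lowest adjusted p, 0.0764, for Ranbp1. Ran has processed copies in the genome that can share its reads.

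Nucleotide, polyamine and ribosome-assembly genes rose in smaller numbers. In one-carbon, purine and pyrimidine synthesis 3 rose and 0 fell of 22 tested. Phgdh, the first enzyme of serine synthesis, stood at 26.0 and 47.2 CPM in cycling macrophages, against 8.62 and 18.4 CPM in non-cycling macrophages (log2 1.23 ± 0.22 SE, adjusted p = 0.0205). The purine enzymes Paics (63.7 and 103 CPM, against 28.5 and 27.5 CPM) and Impdh2 (50.9 and 90.2 CPM, against 21.5 and 30.3 CPM) rose by log2 1.25 and 1.15. Sms, spermine synthase, was the 1 of 8 polyamine genes that rose (73.0 and 73.8 CPM, against 31.6 and 28.5 CPM, log2 1.05, adjusted p = 0.0234). In ribosome biogenesis 3 of 16 rose, namely Nop58 (64.8 and 92.3 CPM, against 25.9 and 34.3 CPM) and Nop56 (48.7 and 61.5 CPM, against 20.6 and 23.4 CPM) of the snoRNA particle and Pa2g4 (108 and 250 CPM, against 49.7 and 56.4 CPM). None of these 7 genes passed in cells of 8000 to 20000 UMIs, where Pa2g4 was at log2 0.43 and Nop56 at 0.95.

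Ribosomal protein and respiratory genes gave no call, with 0 of 20 and 0 of 22. Rps24 stood at 4565 and 5423 CPM in cycling macrophages, against 4335 and 4536 CPM in non-cycling macrophages (log2 -0.05 ± 0.19 SE), and Rpl13 at 3420 and 4445 CPM, against 3274 and 3705 CPM (log2 -0.05). Of the respiratory chain, Cox5b stood at 877 and 939 CPM, against 681 and 650 CPM (log2 0.22, adjusted p = 0.554), and Cox6c at 935 and 869 CPM, against 871 and 675 CPM. In CPM all 4 were higher in cycling cells, and after TMM scaling the sign of Rps24, Rpl13 and Cox6c differed between the libraries. A p above the threshold does not show that these levels were equal.

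Of the G1 regulators and inhibitors of the cycle, 3 rose and 0 fell of 20 tested. Rbl1, the pocket protein p107 of the retinoblastoma family and itself a target of E2F, stood at 27.4 and 26.7 CPM in cycling macrophages, against 4.74 and 5.92 CPM in non-cycling macrophages (log2 2.14 ± 0.26 SE, adjusted p = 0.00291). Ccnd1, cyclin D1, which links growth signals to the cycle, stood at 88.3 and 84.1 CPM, against 17.4 and 31.4 CPM (log2 1.70 ± 0.23, adjusted p = 0.00467). Cdk2, the kinase of S phase entry, stood at 17.0 and 20.5 CPM, against 6.37 and 5.52 CPM (log2 1.32, adjusted p = 0.0461). Of these, Rbl1 also passed in cells of 8000 to 20000 UMIs (log2 2.44), while Ccnd1 was at log2 1.36 (adjusted p = 0.0561) and Cdk2 at 1.22.

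Receptors and lineage factors moved down where they moved, with 0 higher and 3 lower of 27 tested (the list has 29 genes, and Il34 and Kit did not pass the filter on low counts). Cebpa, a myeloid factor that halts proliferation, stood at 67.1 and 55.4 CPM, against 120 and 150 CPM (log2 -1.30 ± 0.20, adjusted p = 0.00964). Csf3r, the receptor for granulocyte colony-stimulating factor, stood at 16.4 and 12.3 CPM, against 34.5 and 38.9 CPM (log2 -1.52, adjusted p = 0.00773, and 0.0541 in cells of 8000 to 20000 UMIs). Csf1r, the receptor that macrophages depend on, did not pass, at 202 and 223 CPM against 181 and 251 CPM (log2 -0.23, adjusted p = 0.575). It is named for its role and was chosen after its values were seen. Cebpa passed under every alternative fit tried, the depth window included (log2 -1.10).

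Lipid genes showed 1 higher and 4 lower of 24 tested, with a median log2 difference of -0.78. Apoe, the apolipoprotein that carries lipid out of macrophages, fell to 56881 and 27767 CPM in cycling macrophages, against 115157 and 49467 CPM in non-cycling macrophages (log2 -1.16 ± 0.23 SE, adjusted p = 0.0283). Gpnmb, a glycoprotein of lipid-laden macrophages, stood at 1887 and 297 CPM, against 3010 and 649 CPM (log2 -1.12, adjusted p = 0.0138). Npc2, which exports cholesterol from lysosomes, stood at 1073 and 888 CPM, against 1459 and 1670 CPM (log2 -0.89), and Apoc1 at 125 and 94.3 CPM, against 367 and 132 CPM (log2 -1.33). Ch25h, cholesterol 25-hydroxylase, was the one that rose, at 5.94 and 8.20 CPM against 1.5 and 1.61 CPM (log2 1.84, adjusted p = 0.0362), from 3 cells in replicate 2. Levels of Gpnmb differed more between the libraries than between the groups. In cells of 8000 to 20000 UMIs Apoe, Gpnmb and Npc2 passed, and Apoc1 (adjusted p = 0.236) and Ch25h (adjusted p = 0.197) did not. Without the library block Npc2 alone of the 5 was called, with an adjusted p of 0.291 for Apoe, 0.732 for Gpnmb, 0.286 for Apoc1 and 0.0698 for Ch25h. Gpnmb and Ch25h also lost their calls when marked doublets were removed. Outside the lists, Pltp, a phospholipid transfer protein (log2 -1.48), Pla2g7, a lipase of platelet-activating factor (log2 -1.58), and Hilpda, a hypoxia-induced lipid droplet protein (log2 -1.31), were lower as well.

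Iron, redox and alternative-activation genes showed 1 higher and 4 lower of 18 tested (of 21, with Retnla, Cd163 and Nqo1 below the filter). Arg1 stood at 51.8 and 49.2 CPM in cycling macrophages, against 178 and 533 CPM in non-cycling macrophages (log2 -2.89 ± 0.47 SE, adjusted p = 0.0122), and in replicate 2 only 2 of 26 members held any. Hmox1, heme oxygenase 1, stood at 1083 and 912 CPM, against 1621 and 3831 CPM (log2 -1.60, adjusted p = 0.0299). Slc7a11, the cystine importer, stood at 15.8 and 51.3 CPM, against 56.1 and 273 CPM (log2 -2.49), and the metal transporter Slc11a1 at 95.9 and 107 CPM, against 142 and 173 CPM (log2 -0.85). Mrc1, the mannose receptor, rose, at 149 and 53.3 CPM against 21.6 and 27.5 CPM (log2 1.78 ± 0.35, adjusted p = 0.0254). It was seen in 26.0% and 7.69% of members (77 and 2 cells), against 7.83% and 8.69% of non-cycling macrophages. Mrc1 is itself among the 10 border macrophage markers, of which 8 and 7 were seen in members, with Lyve1 and Cd209f at 0. None of the 5 called genes passed in cells of 8000 to 20000 UMIs (Mrc1 log2 1.91, adjusted p = 0.124), and outside the monocyte and Arg1 states Arg1 and Hmox1 lost their calls. Leaving out the Arg1 state removes cells by their Arg1 level.

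Of 17 repair and matrix genes 2 were lower and 0 higher. Thbs1, thrombospondin 1, a matrix protein, stood at 98.2 and 152 CPM in cycling macrophages, against 557 and 1395 CPM in non-cycling macrophages (log2 -3.16 ± 0.50 SE, adjusted p = 0.0102). Ecm1 stood at 65.9 and 43.1 CPM, against 193 and 246 CPM (log2 -2.30, adjusted p = 0.0133), and no other repair gene was called. Vegfa, the endothelial growth factor, was the 1 call of 21 glycolysis and hypoxia genes, at 8.49 and 14.4 CPM against 48.2 and 171 CPM (log2 -3.39 ± 0.55, adjusted p = 0.0116). In cells of 8000 to 20000 UMIs Thbs1 still passed (log2 -3.09, adjusted p = 0.0483), Ecm1 was at log2 -2.30 (adjusted p = 0.0618) and Vegfa at -2.95 (adjusted p = 0.128). Cycling macrophages lay below non-cycling ones in both libraries for all 3.

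Inflammatory genes went both ways, with 1 higher and 2 lower of 26 tested. Ccl12, a chemokine for monocytes, rose to 430 and 344 CPM in cycling macrophages, against 77.5 and 125 CPM in non-cycling macrophages (log2 1.71 ± 0.26 SE, adjusted p = 0.00945). It stood at 455 and 585 CPM in free RNA, so its level in members was at or under that of free RNA, and in replicate 2 a pair of cells held 75.6% of its UMIs. Il1a, an alarm cytokine, stood at 10.2 and 10.3 CPM, against 24.8 and 42.1 CPM (log2 -1.91, adjusted p = 0.0153), and the chemokine Ccl24 rested on 1 UMI in each library. Of 17 immediate-early genes 1 was lower, Ier3, at 112 and 185 CPM against 309 and 1132 CPM (log2 -2.44, adjusted p = 0.0379), and the median over the list was -0.95. Neither Ccl12, Il1a nor Ier3 passed in cells of 8000 to 20000 UMIs.

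Of 19 monocyte genes 1 was lower, Chil3, a chitinase-like protein of monocytes, at 33.1 and 178 CPM in cycling macrophages against 213 and 1548 CPM in non-cycling macrophages (log2 -3.21 ± 0.65 SE, adjusted p = 0.0308). In the phagocytosis list the immune receptors Cd300lf (31.4 and 22.6 CPM, against 57.8 and 96.5 CPM) and Fcgr3 (225 and 193 CPM, against 290 and 376 CPM) were lower, 2 of 20. In the lysosome list Ctss, the protease cathepsin S, fell to 2122 and 2218 CPM, against 3667 and 3988 CPM (log2 -1.04 ± 0.18, adjusted p = 0.0177). Atp6v0d2, a proton pump subunit, was the other of 17 (14.7 and 2.05 CPM, against 41.4 and 9.82 CPM). Ctss passed in cells of 8000 to 20000 UMIs (log2 -1.09), as did Atp6v0d2 (log2 -2.32), but Chil3 (log2 -3.15, adjusted p = 0.0966), Cd300lf (adjusted p = 0.0753) and Fcgr3 (adjusted p = 0.127) did not. Without the library block Ctss was still called (adjusted p = 0.0287) and the others were not, with an adjusted p of 0.447 for Atp6v0d2.

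Antigen-presentation and interferon genes gave 0 calls of 16 and 0 of 20. Cd74 stood at 553 and 7319 CPM in cycling macrophages, against 402 and 3500 CPM in non-cycling macrophages (log2 0.73 ± 0.81 SE, adjusted p = 0.70), and H2-Ab1 at 188 and 3454 CPM, against 149 and 1438 CPM (log2 0.87). Both were higher in cycling cells in each library, and the libraries differed by more than the groups. The interferon list had a median log2 of -1.03, made of -0.13 in replicate 1 and -1.85 in replicate 2. Ifitm3 stood at 777 and 1671 CPM, against 547 and 3144 CPM, and Ifi27l2a at 1225 and 1572 CPM, against 390 and 1866 CPM, so their direction differed between libraries.

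Outside the lists, the genes with the largest decrease included enzymes and signalling genes. Sgk1, a stress-responsive kinase, stood at 301 and 207 CPM in cycling macrophages, against 553 and 615 CPM in non-cycling macrophages (log2 -1.42 ± 0.19 SE, adjusted p = 0.00484). Ninj1, which ruptures the membrane of dying cells, stood at 347 and 226 CPM, against 570 and 678 CPM (log2 -1.37). Gadd45a, a growth arrest gene, stood at 28.3 and 6.15 CPM, against 58.7 and 52.5 CPM (log2 -1.68). Cxcr4, a homing receptor, stood at 61.7 and 51.3 CPM, against 109 and 133 CPM (log2 -1.35). Tgm2 (-1.77), Mgst1 (-1.68), Rab20 (-1.53), Grina (-1.47) and Ypel3 (-1.26) completed the 12 with the 3 lipid genes above. Of these, Tgm2, Pltp, Cxcr4 and Ypel3 did not pass in cells of 8000 to 20000 UMIs. Without the library block Tgm2, Mgst1, Gadd45a, Pla2g7, Pltp, Cxcr4 and Hilpda lost their calls. Gadd45a also lost its call when marked doublets were removed.

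**Figure D4:**
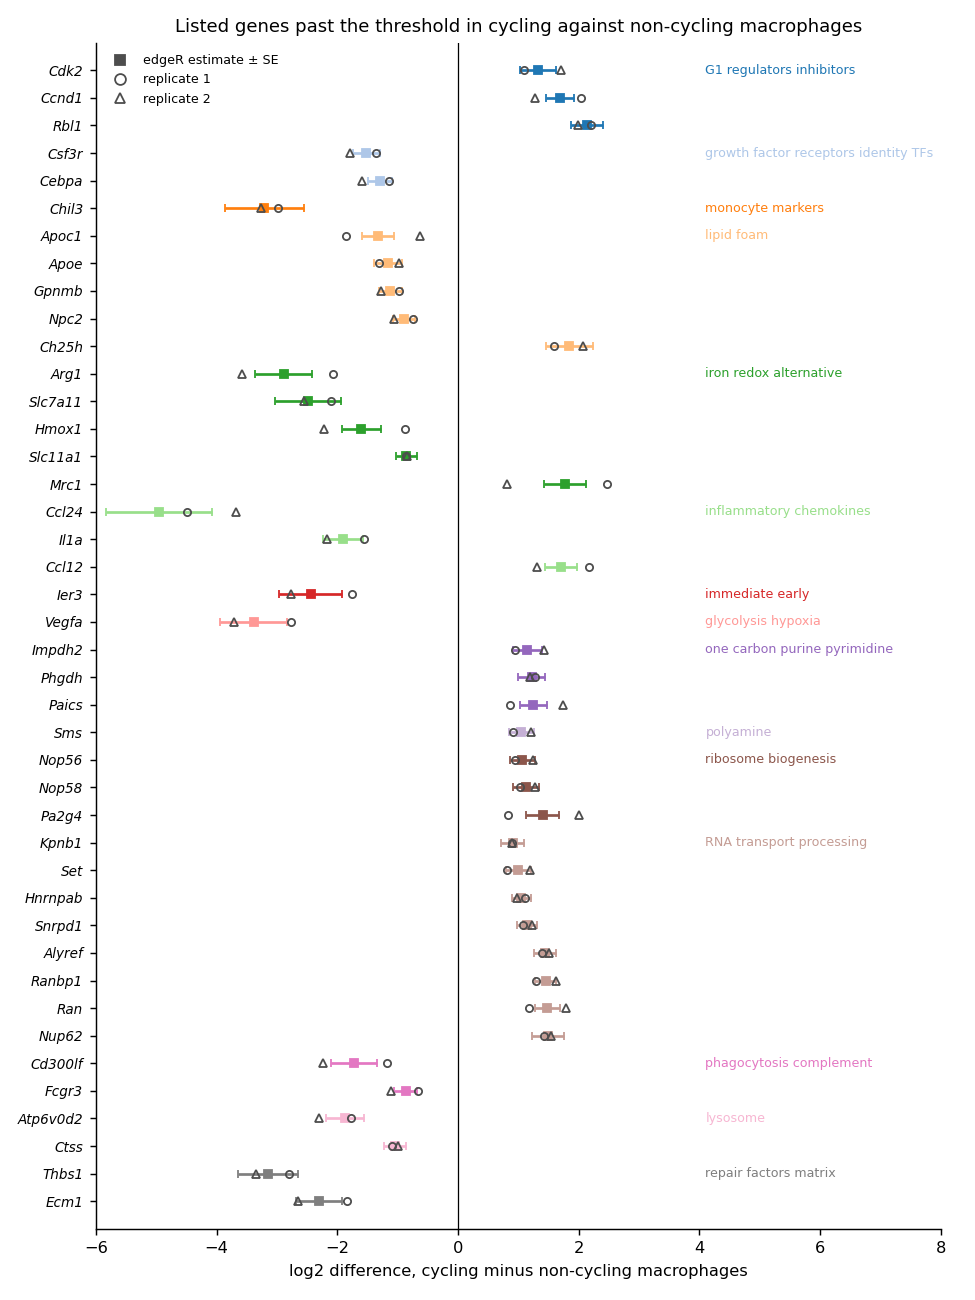
Log2 difference of cycling minus non-cycling macrophages for 42 genes of the function lists past an adjusted p of 0.05 (squares, edgeR estimate ± SE), with the difference in replicate 1 (circles) and replicate 2 (triangles) at a prior count of 2. Names of the lists stand at the right. Genes of RNA transport, nucleotide synthesis and ribosome assembly lie to the right of 0 and genes of lipid, iron and repair lie mostly to the left, and the libraries are on the same side for every gene shown.

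Set against cycling microglia-gate cells, cycling macrophages differed in many genes, with 826 higher (7.18% of 11503 tested, division lists included) and 1160 lower (10.1%). Of 149 tested genes in the 5 division lists 14 were higher and 0 lower, to be read against the shares over all genes just given, 3 of 22 in licensing, 4 of 32 in replication, 2 of 23 in histones and chromatin, 0 of 20 in mitotic entry and 5 of 52 in the spindle list. Dnmt1 (104 and 88.2 CPM in cycling macrophages, against 39.4 and 35.2 CPM in cycling microglia-gate cells, log2 1.5 ± 0.20 SE, adjusted p = 0.00199), Gmnn (log2 1.24), Pcna (205 and 178 CPM, against 95.2 and 114 CPM, log2 1.02) and Tuba1c (248 and 305 CPM, against 117 and 170 CPM, log2 1.11) were examples. For mitotic entry, Cks1b stood at 223 and 359 CPM, against 161 and 189 CPM (log2 0.85, adjusted p = 0.0645), and Cks2 at 203 and 283 CPM, against 233 and 230 CPM. Both sides had passed the same limit on 4 mitotic genes. Members were chosen by Lyz2 and low microglia genes, and microglia-gate cells by high microglia genes. For genes that go with either identity, here and below, the direction therefore follows in part from the choice of cells. Their p-values are no independent check of identity. In cells of 8000 to 20000 UMIs 5 of the 14 were still called (Gmnn, Mcm7, Cdt1, Dnmt1 and Pcna), and Tuba1c was not (adjusted p = 0.0919). Of 146 calls in the function lists 100 were still made there.

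Monocyte and lipid genes were higher in cycling macrophages. Of 19 monocyte genes 13 were higher and 0 lower, such as Lgals3, galectin 3 (3296 and 2928 CPM in cycling macrophages, against 170 and 78.3 CPM in cycling microglia-gate cells, log2 4.88 ± 0.34 SE, adjusted p = 0.000105), S100a4 (635 and 1044 CPM, against 28.4 and 42.0 CPM) and Vim, vimentin (1219 and 2054 CPM, against 59.5 and 187 CPM). Of 24 lipid genes 12 were higher and 2 lower. Gpnmb stood at 1887 and 297 CPM, against 52.2 and 9.46 CPM (log2 5.25), Fabp5, a fatty acid carrier, at 4904 and 1710 CPM, against 305 and 227 CPM (log2 3.55), the scavenger receptor Cd36 at 406 and 57.4 CPM, against 3.66 and 3.68 CPM, and Plin2, the lipid droplet coat, at 1630 and 939 CPM, against 245 and 230 CPM. Gpnmb and Apoe, lower in cycling than in non-cycling macrophages, were higher in cycling macrophages than in cycling microglia-gate cells (Apoe log2 1.08, adjusted p = 0.0147), while Npc2 was not called (log2 -0.02).

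Iron and redox genes gave 14 higher and 0 lower of 18. Cybb, the NADPH oxidase subunit, stood at 196 and 209 CPM in cycling macrophages, against 22.0 and 13.1 CPM in cycling microglia-gate cells (log2 3.72 ± 0.32 SE), Ftl1, ferritin light chain, at 23787 and 17026 CPM, against 5942 and 5766 CPM (log2 1.93), and Prdx1, a peroxidase, at 3536 and 2347 CPM, against 707 and 736 CPM (log2 2.14). Of 22 respiratory genes 9 were higher and 0 lower, led by Cycs, cytochrome c (414 and 578 CPM, against 191 and 249 CPM, log2 1.31) and Cox5a (767 and 769 CPM, against 380 and 388 CPM, log2 1.15). Glycolysis genes split, with 6 higher and 3 lower of 21. Pgam1 stood at 535 and 572 CPM, against 204 and 327 CPM (log2 1.24), and Hk2, hexokinase 2, at 69.9 and 61.5 CPM, against 364 and 286 CPM (log2 -2.15, adjusted p = 0.000258). RNA transport had 7 higher of 17, with Ranbp1 at 457 and 586 CPM, against 252 and 302 CPM (log2 1.06). Of these 7, Ranbp1 alone passed in cells of 8000 to 20000 UMIs (adjusted p = 0.0425), and Alyref, Snrpd1, Snrpe, Hnrnpab, Ran and Set did not (adjusted p of 0.0933 for Snrpe to 0.422 for Set). Of the 9 respiratory calls 4 held there, Cycs and Cox5a among them. Repair genes had 9 higher and 2 lower of 17, with Adam8 at 220 and 125 CPM, against 8.24 and 5.78 CPM (log2 4.74).

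Growth factor receptors and lineage factors gave 2 higher and 11 lower of 27. Csf1r stood at 202 and 223 CPM in cycling macrophages, against 1348 and 1150 CPM in cycling microglia-gate cells (log2 -2.41 ± 0.20 SE, adjusted p = 0.000257). Its ligand Csf1 stood at 12.2 and 0 CPM, against 87.9 and 91.9 CPM, and Csf3r at 16.4 and 12.3 CPM, against 116 and 87.2 CPM. Of 20 G1 regulators 0 were higher and 3 lower, the inhibitors Cdkn1c, p57, at 2.26 and 2.05 CPM, against 17.4 and 18.4 CPM (log2 -2.72, adjusted p = 0.00452), and Cdkn2a, the p16 and p19Arf locus, at 3.96 and 0 CPM, against 21.1 and 28.4 CPM. The other was Ccng2. Cdkn1c was at log2 -1.47 in cells of 8000 to 20000 UMIs (adjusted p = 0.292), where Cdkn2a and Ccng2 passed. Of 22 one-carbon, purine and pyrimidine genes 3 were higher and 1 lower. The lower one was Phgdh, at 26.0 and 47.2 CPM, against 172 and 252 CPM (log2 -2.45, adjusted p = 0.0003), although it was higher in cycling than in non-cycling macrophages. Nme1 (log2 1.19), Impdh1 (log2 3.40) and Nme2 (log2 0.71) were higher, and of these Nme1 alone passed in cells of 8000 to 20000 UMIs.

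Immediate-early genes gave 0 higher and 5 lower of 17, with Klf2 at 77.5 and 86.1 CPM in cycling macrophages, against 634 and 527 CPM in cycling microglia-gate cells (log2 -2.68 ± 0.29 SE), Btg2, which slows proliferation, at 58.6 and 197 CPM, against 835 and 785 CPM, and Jun at 242 and 482 CPM, against 1381 and 1181 CPM. Inflammatory genes gave 6 higher and 8 lower of 26. Pf4 (1162 and 834 CPM, against 19.2 and 23.1 CPM, log2 5.6) and Ccl7 were higher, and Il1a (10.2 and 10.3 CPM, against 187 and 145 CPM, log2 -3.87) and Ccl3 (305 and 476 CPM, against 1695 and 1290 CPM, log2 -1.82) were lower. In phagocytosis 5 were higher and 7 lower of 20. Msr1, a scavenger receptor, stood at 200 and 75.9 CPM, against 12.8 and 12.1 CPM, while Mertk, the receptor that takes up dead cells, stood at 32.0 and 14.4 CPM, against 158 and 108 CPM, and its bridging ligand Pros1 at 13.6 and 8.20 CPM, against 129 and 113 CPM. The lysosome list gave 2 higher and 4 lower of 17.

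Antigen presentation gave 4 higher and 2 lower of 16. Cd74 stood at 553 and 7319 CPM in cycling macrophages, against 144 and 189 CPM in cycling microglia-gate cells (log2 4.0 ± 0.97 SE, adjusted p = 0.024), and H2-Aa at 140 and 2421 CPM, against 27.5 and 45.7 CPM. None of the 4 higher calls held in cells of 8000 to 20000 UMIs (Cd74 adjusted p = 0.125, H2-Aa 0.12, H2-Ab1 0.134, H2-Eb1 0.155). Cd74 and H2-Aa differed by more than 10-fold between the libraries within cycling macrophages. The costimulatory genes Cd86 (19.2 and 63.6 CPM, against 149 and 154 CPM) and Cd83 (61.1 and 178 CPM, against 358 and 345 CPM) were lower. Of 20 interferon genes, Bst2 was higher (955 and 804 CPM, against 617 and 607 CPM) and Cxcl10 lower (37.9 and 105 CPM, against 296 and 382 CPM).

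**Figure D5:**
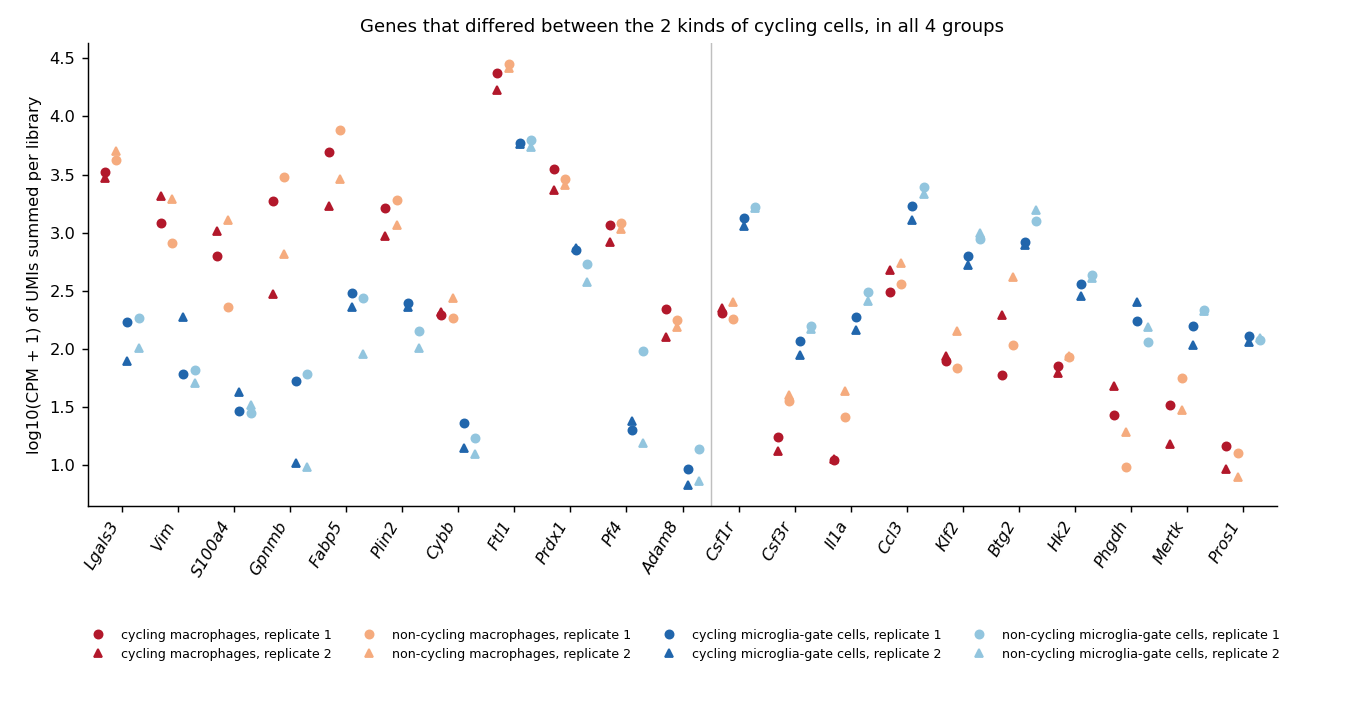
Levels of 21 genes that differed between cycling macrophages and cycling microglia-gate cells, with both non-cycling groups, as log10(CPM + 1) of UMIs summed per library. Circles are replicate 1 and triangles replicate 2, and the grey line separates genes that were higher from genes that were lower in cycling macrophages. For Lgals3, both macrophage groups lie above both microglia-gate groups, with 3296 and 2928 CPM in cycling macrophages, against 170 and 78.3 CPM in cycling microglia-gate cells.

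Outside the lists, the largest increases over cycling microglia-gate cells were in Clec4d, a C-type lectin receptor (312 and 139 CPM in cycling macrophages, against 4.58 and 2.63 CPM in cycling microglia-gate cells, log2 6.18), Cfp, properdin of complement (log2 5.69), Acp5, an acid phosphatase (5.43), Clec4n (4.95), Emb (4.78), Kcnn4 (4.58), Emilin2 (4.48), Clec12a (4.47), AA467197 (4.11), Crip1 (3.69), Wfdc17 (3.62) and Emp1 (3.59). The largest decreases were in Col3a1 (-5.61), Thrsp (-5.56), Fscn1 (-5.44), Nav3 (-5.27), Adamts1 (-5.13), Klk8 (-4.99), Igfbp7 (-4.83), Lag3 (-4.81), Col1a1 (-4.81), Col1a2 (-4.78), Adgrg1 (-4.57) and St3gal6 (-4.56). Several of these had 0 UMIs in cycling macrophages of replicate 2, and their fitted values depend on the prior count. The 3 collagen genes rested on 2 of 123 and 3 of 140 cycling microglia-gate cells, which held 220 of 222 and 1343 of 1346 collagen UMIs. Lag3, an inhibitory receptor, stood at 5.94 and 4.1 CPM in cycling macrophages, against 188 and 163 CPM in cycling microglia-gate cells.

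Whether division went with different changes in macrophages than in microglia-gate cells was tested as an interaction over 11503 genes. By edgeR's quasi-likelihood test 0 genes were higher and 0 lower (0% each), with 749 at an unadjusted p under 0.05, and DESeq2 called 13 and 34. The smallest adjusted p was 0.248. Among genes named above it was reached by Ccnd1, which in macrophages stood at 88.3 and 84.1 CPM in cycling against 17.4 and 31.4 CPM in non-cycling cells, and in microglia-gate cells at 65.0 and 78.8 CPM in cycling against 71.8 and 75.4 CPM in non-cycling cells (interaction log2 1.80 ± 0.32 SE). It was also reached by Vegfa, at 17.4 and 23.1 CPM in cycling against 10.9 and 7.49 CPM in non-cycling microglia-gate cells (interaction log2 -4.38). No difference between the lineages in their response to division passed edgeR's test, which does not show that the lineages respond alike.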

How the data were processed

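Both libraries of sorted brain myeloid cells were measured. As deposited, each matrix lists UMI counts, not normalized, by gene and barcode, and the authors made it with Cell Ranger 4.0.0 per the file headers and the submitters' processing notes, which also name STAR 2.5.1b, Seurat 4, mm10, GRCm38 and GRCh38 without their roles. No source used here says how multi-mapping reads were treated. Members, lists and tests were chosen with earlier results of these data known. UMIs were summed per library and cell group (8 sums) and fitted with edgeR 4.0.16 (quasi-likelihood, TMM, filterByExpr, library as block, R 4.3.3), with Benjamini-Hochberg adjustment over all genes the rule did not use. The libraries pair the groups because both groups of a pair come from the same library; deviations correlated at r = 0.331 between cycling and non-cycling macrophages over 11516 genes and at 0.0372 to 0.116 in other pairs that shared a library. Named genes were the called members of each list (2 to 4 examples by adjusted p) or, with none called, its 2 most abundant, the 6 most abundant genes of each division list, and, outside the lists, the 12 largest called changes each way with the same sign in both libraries and at least 50 CPM in both libraries of the higher group. On simulated data of the comparison within macrophages (11516 genes), 78.0% of genes at log2 2 (39 of 50), 36.0% at 1 (18 of 50), 6.00% at -1 (3 of 50) and 58.0% at -2 (29 of 50) were recovered. Among 11154 unchanged genes 20 were called as well, beside the 39, 18, 3 and 29 recovered. The share of false calls among the simulated calls was thus above the threshold of 0.05. Alternatives were DESeq2 1.42.0, other size factors, no filter, no block, a depth window, doublet removal and stricter limits. Free RNA (barcodes under 100 UMIs) was 4.91% and 4.40% of UMIs. Intervals are exact Clopper-Pearson. Python 3.11.15 and scanpy 1.11.5 (Scrublet) were used. A few called list members are not reported here.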

Additional observations from a re-analysis of the deposited data

How the results depend on the processing

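None of the 251 called gene results that were checked changed sign in any alternative fit, and the other called genes were not checked. In cells of 8000 to 20000 UMIs the order of 2 state shares turned: the monocyte share of replicate 1 was 0.952% in cycling against 0.897% in non-cycling macrophages, and the foam share of replicate 2 was 33.3% against 28.2%. For cycling against non-cycling macrophages (315 higher, 89 lower), there were 582 and 643 calls without a low-count filter, 161 and 27 in cells of 8000 to 20000 UMIs, and 254 lower with DESeq2. Without the replicate block 40 were lower. Against cycling microglia-gate cells (826 higher, 1160 lower), 1402 were higher without the filter, and 465 higher and 678 lower in the depth window. For the interaction, DESeq2 gave 13 higher and 34 lower, and no filter gave 60 and 137. The cycling share of replicate 1 was 6.78% at 2 or more UMIs, 4.59% at 5 or more and 11.5% in the depth window. The Arg1 state of cycling cells in replicate 1 was 0.415% at 5 or more UMIs. The mitotic share in replicate 1 was 73.3% without tubulin genes, and 70.0% when also thinned, both chosen after seeing the data. The cause of these shifts was not tested. Of 251 named gene results, 249 kept their call with DESeq2, 187 without the block, 155 in the depth window, 239 without marked doublets and 227 under stricter cell limits. Leaving out either library left 1 library a side and gave values with no test. The 251 called gene results kept their sign there, with 38 moved by more than the spread between libraries without replicate 1 and 22 without replicate 2. Genes named without a call did not all keep it (Rps24, Rpl13, Cox6c, Ifitm3 and Ifi27l2a). In replicate 2, 26 cells carry every value, so single cells weigh heavily there.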

Other observations

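Values that belong to no comparison above concern RNA of other cells. In the neutrophil gate, 21 of 102 and 19 of 252 cells held at least 10 UMIs of Ngp and Camp, granule genes of neutrophil precursors. Of the 7261 and 16196 UMIs of these genes in the whole gate, 2994 and 11673 lay in the 5 and 9 cells with at least 3 division UMIs. In cycling macrophages of replicate 1, 2 of 296 cells held at least 10 collagen UMIs, and in replicate 2 this was 0 of 26. Haemoglobin RNA was also found in free RNA, with erythroid markers at 787 and 2039 CPM.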
